A study of Mus musculus with 12 samples.

Results

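Expression was compared between ileum samples rich and poor in Peyer's patch tissue, over 6 Affymetrix mouse gene arrays of the ileum out of 12 arrays in the series, the other 6 being of the hippocampus. The mice were *Csf1r*+/+ or *Csf1r* ΔFIRE/ΔFIRE, the latter lacking on both alleles FIRE, the conserved enhancer in the second intron of *Csf1r*, the gene of the macrophage colony-stimulating factor receptor. All were 6 weeks old, of mixed C57BL/6J/CBA background and perfused with saline, and the deletion line descended from 1 male founder. The ileum arrays were C09 (*Csf1r*+/+, male), D09 (*Csf1r*+/+, male), E09 (*Csf1r*+/+, female), F09 (*Csf1r* ΔFIRE/ΔFIRE, female), G09 (*Csf1r* ΔFIRE/ΔFIRE, male) and H09 (*Csf1r* ΔFIRE/ΔFIRE, female). An array was called patch-rich where *Ms4a1*, the gene of CD20 on the surface of B cells, was above 6 on the RMA log2 scale (normalized probe intensity, on which a difference of 1 is 2-fold), and patch-poor otherwise. This put D09 and F09, 1 array of each genotype and of each sex, in the patch-rich class and the other 4, 2 of each genotype and of each sex, in the patch-poor class.

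Peyer's patches are lymphoid organs in the wall of the small intestine, most numerous in the ileum. B cell follicles are organised around follicular dendritic cells, which attract B cells with the chemokine CXCL13, and T cells gather between the follicles, where they enter from the blood through high endothelial venules. Over each follicle lies a specialised follicle-associated epithelium with microfold (M) cells, which carry particles and bacteria from the lumen to the immune cells beneath.

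*Ms4a1* was 7.66 in D09 and 7.68 in F09, and 2.68 in C09, 2.50 in E09, 2.32 in G09 and 2.14 in H09. The limit of 6 therefore fell in an empty interval, with D09 nearest above it and C09 nearest below it. The 6 hippocampus arrays, a tissue with almost no B cells, ranged from 1.85 to 2.26, so that 1 patch-poor array lay within that range and the other 3 were at most 0.42 above it. All 6 ileum samples were labelled as Peyer's patch with ileum and, by the design text, every piece was taken to contain a patch, but in 4 of them *Ms4a1*, *Cr2* and *Pax5* were at or near the hippocampus level, while *Cd79a* and *Cd79b* were above it. Since the classes were chosen by the *Ms4a1* values of these same arrays, the differences between them are given as a description, with the standard error of a fit with genotype as a covariate and without a p-value. The array medians, which normalization brings together, were 4.40 to 4.45, and pairwise correlations over all clusters were 0.979 to 0.987. *Xist* and *Eif2s3y* matched the labelled sex in 6 of 6.

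A transcript cluster (the probe set of a gene) was counted as higher or lower where the class means differed by at least 2-fold and both patch-rich arrays lay beyond all 4 patch-poor arrays. Of 21218 clusters with a single gene symbol, 258 were higher (1.22%) and 19 were lower (0.0895%) in the patch-rich arrays. With each gene taken at its cluster of highest mean, 250 of 18820 genes were higher (1.33%) and 19 were lower (0.101%). The higher genes had a median difference of 1.55 on the log2 scale, 79 of them differed by at least 4-fold, 26 by at least 8-fold and 9 by at least 16-fold, while the median over all genes was -0.02. Without the 2-fold limit, both patch-rich arrays were above all patch-poor arrays in 1418 clusters (6.68%) and below them in 1479 (6.97%). At the limit, *Icos* (1.009) and *Sh3kbp1* (1.004) lay just inside and *Bach2* (0.998) and *Padi2* (0.988) just outside among higher genes, and *Amy1* (-1.061) and *Adhfe1* (-1.001) just inside and *Mir215* (-0.98) and *Frzb* (-0.97) just outside among lower genes. In whole-tissue RNA, fewer cells of a type and less RNA per cell cannot be told apart.

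The genes with the largest differences were those of follicular B cells, the cell type on whose marker the arrays were classed. *Fcmr*, the Fc receptor for IgM, was 9.21 in D09 and 9.19 in F09 against 4.02 in C09, 3.49 in E09, 3.41 in G09 and 3.50 in H09, a difference of 5.60 ± 0.18 (SE), the largest of any gene and larger than that of *Ms4a1* itself (5.26 ± 0.15). *Cd79a*, a signalling chain of the B cell receptor, was 9.18 and 9.05 against 3.59, 3.87, 5.59 and 3.37 (arrays in the same order, here and below), with G09 well above the other patch-poor arrays. Its partner *Cd79b* was 10.03 and 9.94 against 5.26, 5.49, 5.94 and 5.57. G09 was thus the highest patch-poor array for both chains, although only H09 had a lower *Ms4a1* level.

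*Fcer2a*, the low-affinity IgE receptor CD23 of follicular B cells, differed by 4.72 ± 0.16, and *Cr2*, the complement receptor CD21 of B cells and follicular dendritic cells, by 4.43 ± 0.17. *Cr2* was 6.52 in D09 and 7.06 in F09 and between 2.30 and 2.44 in the patch-poor arrays, which overlapped the hippocampus range of 2.21 to 2.41. *Pax5*, the transcription factor that fixes B cell identity, was 6.87 and 7.05 against 3.15 to 3.21, a range inside that of the hippocampus (3.07 to 3.29). Patch-rich and patch-poor arrays were therefore separated by more than 3 log2 units for each of these genes, and the patch-poor arrays lay close together.

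Of 28 measured B cell genes, 25 were higher and 0 lower in the patch-rich arrays, with a median difference of 3.05. *Ms4a1*, on which the arrays were classed, is 1 of the 28, and without it 24 of 27 were higher, with a median of 3.04. The other 3, *Cd40* (0.90), *Siglecg* (0.73) and *Blnk* (0.68), were also above all patch-poor arrays but by less than 2-fold. The mean over the list was 7.21 in D09 and 7.24 in F09, against 4.06 in C09, 4.22 in E09, 4.47 in G09 and 4.24 in H09, and 3.31 to 3.73 in the hippocampus. The patch-rich arrays thus differed by 0.03 in the list mean, and the patch-poor arrays spread over 0.41.

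**Figure D1:**
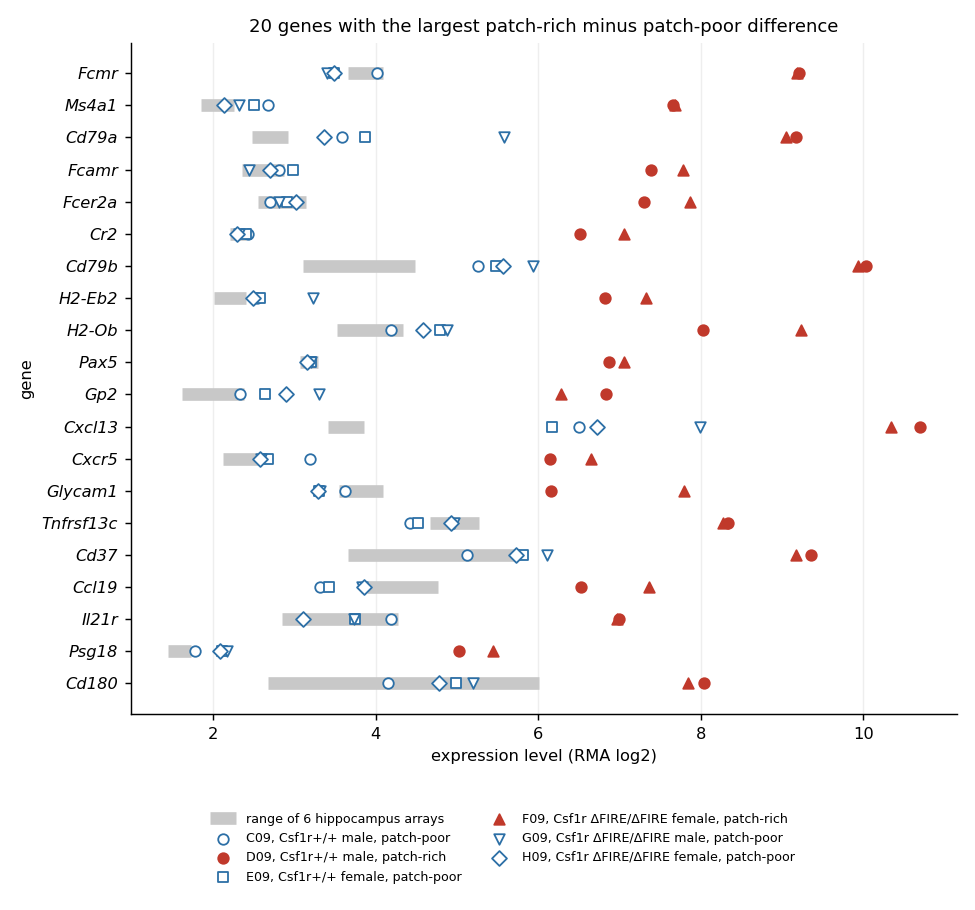
Expression level (RMA log2, horizontal axis) in each ileum array of the 20 genes with the largest patch-rich minus patch-poor difference, with patch-rich arrays in filled red, patch-poor arrays in open blue and the range of the 6 hippocampus arrays in grey. In every gene both red symbols lie to the right of all blue ones. For *Pax5* the blue symbols lie on the grey bar, as they do for *Cr2* except C09, just to its right. For *Cd79a* and *Cxcl13* G09 stands to the right of the other blue symbols.

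The octamer ATTTGCAT is the site of the Oct-1 and Oct-2 proteins, which with their coactivator (encoded by *Pou2af1*, 3.02 higher) act at immunoglobulin and other B cell promoters, so the promoters of the higher genes were searched for it. The search covered 300 bases, from 250 before to 50 after each gene's start, on both strands (ATTTGCAT or ATGCAAAT), in RefSeq sequence of build GRCm38.p6. The octamer occurred in 9 of 191 higher genes with a promoter in the table (4.71%), in 0 of 10 lower genes, in 2 of 22 B cell genes (9.09%), in 284 of 14749 measured genes (1.93%) and in 532 of 27025 genes of the table (1.97%). The promoters of 4 genes are shown, chosen after their values were seen as the octamer-bearing genes of best-known B cell role, with the octamer in capitals. *Vpreb3* (a chaperone of the B cell receptor, difference 3.14, chr10:75948050-75948349, plus strand), *Ccr6* (the receptor of CCL20, 2.22, chr17:8235793-8236092, plus strand), *Tlr9* (the receptor of unmethylated CpG DNA, 2.11, chr9:106222348-106222647, plus strand) and *Blnk* (an adaptor of B cell receptor signalling, 0.68 and so not among the 250 higher genes, chr19:40994172-40994471, minus strand) carried it 45, 68, 72 and 130 bases before the start, in the same order, forward in all but *Tlr9*.
Vpreb3: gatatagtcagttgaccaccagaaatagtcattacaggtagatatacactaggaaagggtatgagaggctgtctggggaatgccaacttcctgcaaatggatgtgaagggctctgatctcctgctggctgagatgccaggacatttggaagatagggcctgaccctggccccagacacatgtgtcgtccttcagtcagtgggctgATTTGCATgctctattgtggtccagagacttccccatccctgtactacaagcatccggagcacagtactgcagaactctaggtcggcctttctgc
Ccr6: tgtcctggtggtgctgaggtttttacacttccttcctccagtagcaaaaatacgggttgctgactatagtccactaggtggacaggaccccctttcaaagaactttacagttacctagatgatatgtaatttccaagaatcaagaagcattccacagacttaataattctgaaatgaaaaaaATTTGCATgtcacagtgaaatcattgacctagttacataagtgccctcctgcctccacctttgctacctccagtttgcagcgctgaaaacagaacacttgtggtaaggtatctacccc
Tlr9: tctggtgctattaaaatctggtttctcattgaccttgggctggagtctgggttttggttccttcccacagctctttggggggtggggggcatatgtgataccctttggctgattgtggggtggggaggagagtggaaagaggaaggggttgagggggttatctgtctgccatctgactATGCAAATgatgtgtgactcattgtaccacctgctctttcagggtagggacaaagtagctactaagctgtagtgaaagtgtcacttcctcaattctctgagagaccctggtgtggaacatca
Blnk: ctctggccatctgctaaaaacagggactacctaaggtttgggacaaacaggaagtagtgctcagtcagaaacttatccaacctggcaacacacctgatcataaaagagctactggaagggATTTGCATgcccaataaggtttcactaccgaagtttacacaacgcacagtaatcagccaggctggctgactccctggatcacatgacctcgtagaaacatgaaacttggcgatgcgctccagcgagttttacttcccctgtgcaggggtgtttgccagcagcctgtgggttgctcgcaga

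A match of these letters is a description of the sequence and not a measured binding site. The other octamer-bearing higher genes were *Slc7a11* (2.82), *Ms4a4c* (2.58), *Prkcb* (1.98), *Sash3* (1.97), *Cnr2* (1.38) and *Kcnab2* (1.03). *Vpreb3* itself was 6.61 and 6.72 against 3.50, 3.67, 3.31 and 3.61, and *Tlr9* 7.67 and 7.53 against 4.89, 5.47, 6.16 and 5.45.

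T cell genes were higher as well, by less. Of 24 measured genes of the T cell list, 13 were higher and 0 lower, with a median difference of 1.18, and 23 of 24 were above all patch-poor arrays at any size. *Ccr7*, the receptor that guides naive T cells and activated B cells to the T zone, was 7.35 and 7.60 against 4.46, 4.46, 4.79 and 4.68, a difference of 2.88 ± 0.12. *Cd2*, an adhesion receptor of T cells, differed by 2.56 ± 0.17, *Lef1*, a transcription factor of naive T cells, by 2.14 ± 0.16, and *Grap2*, an adaptor of T cell receptor signalling, by 2.09 ± 0.18. The classes did not overlap in any of these 4 genes. *Cd4* was 6.93 in D09 and 6.53 in F09 but also 6.43 in G09, against 5.01, 5.31 and 5.33 in the other patch-poor arrays.

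Genes of follicular helper and regulatory T cells were higher in 2 of 13 cases. These were *Cxcr5*, the receptor for CXCL13 on B cells and follicular helper T cells, at 6.15 and 6.65 against 3.19, 2.68, 2.60 and 2.58, and *Icos*, at 4.84 and 5.17 against 3.94, 3.65, 4.29 and 4.11. Cytotoxic and intraepithelial lymphocyte genes, cells of the epithelium outside the patches, had 0 higher and 0 lower of 14, with a median difference of 0.20. A list of 17 signalling and actin genes common to leukocytes, by contrast, had 14 higher and a median of 1.92.

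Of 8 measured genes of the germinal centre, where B cells mutate their receptors, 3 were higher. *Gcsam*, a germinal centre signalling protein, was 5.37 and 5.97 against 2.95, 2.93, 3.46 and 3.11, and *Klhl6* and *Mybl1* differed by 2.63 ± 0.13 and 1.37 ± 0.23. *Bcl6*, the master regulator of the germinal centre, was 6.78 and 7.10 against 5.87, 6.22, 6.85 and 6.36, so that G09 lay between the patch-rich arrays. The 22 cell cycle genes had 0 higher and 0 lower and a median difference of 0.03.

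Of 10 genes in a list for plasma cells, which lie mainly in the villi, 2 were higher, and the median difference was 0.03. The list also holds *Pigr*, a gene of the epithelium that carries IgA to the lumen. Its median was 0.53 within *Csf1r*+/+ and -0.16 within *Csf1r* ΔFIRE/ΔFIRE, each list median resting on 1 patch-rich array. *Mzb1*, a chaperone of plasma cells and of some B cells, was 7.23 and 6.59 against 3.70, 4.36, 5.04 and 4.64, and *Irf4* differed by 1.14 ± 0.26. *Jchain*, which joins IgA dimers, was 9.30 in D09 and 8.04 in F09 against 8.18, 8.68, 9.23 and 8.86, with F09 the lowest of the 6 arrays.

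The stroma of the follicles was represented by 11 measured genes, of which 5 were higher and 0 lower, with a median difference of 0.96. *Cxcl13*, made by follicular dendritic cells, was 10.70 in D09 and 10.34 in F09 against 6.50, 6.17, 7.99 and 6.73, a difference of 3.67 ± 0.43, and again G09 was the highest of the patch-poor arrays. *Clu*, the secreted chaperone clusterin, which follicular dendritic cells make in quantity, was 9.47 and 9.60 against 6.42, 7.08, 6.73 and 6.42. The hippocampus, where astrocytes and neurons express *Clu*, was higher still, at 10.60 to 10.71.

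*Mfge8*, a bridge for the uptake of dying cells, was 10.31 and 10.13 against 8.21, 8.53, 8.93 and 8.40. *Madcam1*, the mucosal addressin on follicle stroma and venules, differed by 1.80 ± 0.20, and *Vcam1*, an integrin ligand, by 1.12 ± 0.19. *Icam1* (0.96) and *Tnfsf11* (0.81), the RANK ligand that stroma presents to the epithelium, were above all patch-poor arrays without reaching 2-fold. *Bst1* (-0.29) overlapped between the classes, and *Prnp* (-0.21) was slightly below all patch-poor arrays.

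Single genes marked the T zone and the venules. *Ccl19*, the T zone ligand of CCR7, was 6.53 and 7.37 against 3.32, 3.43, 3.83 and 3.86, the 1 higher gene of 7 in its list. It is uncertain, since near-identical copies share probes, and its 5 clusters gave differences of 2.86 to 3.46. *Glycam1*, a mucin-like ligand of L-selectin on high endothelial venules, was 6.16 in D09 and 7.80 in F09 against 3.62, 3.31, 3.32 and 3.29. Both patch-rich arrays were high, but they were 1.64 apart, 1 of only 7 higher genes in which they differed by 1 or more. *Glycam1* and *Madcam1* were the 2 higher genes among 8 of the venule list, whose median difference was 0.42. Lymphatic endothelium had 0 higher of 7 genes and blood endothelium 0 of 10, with medians of -0.11 and -0.35. Within *Csf1r*+/+ these medians were 0.23 and 0.06, and within *Csf1r* ΔFIRE/ΔFIRE -0.52 and -0.78, each resting on 1 patch-rich array.

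Of 20 measured genes of M cells and the follicle-associated epithelium, 2 were higher and 0 lower, and the median difference was -0.01. *Gp2*, the M cell receptor that takes up fimbriated bacteria, was 6.84 in D09 and 6.28 in F09 against 2.34 in C09, 2.65 in E09, 3.30 in G09 and 2.90 in H09, a difference of 3.76 ± 0.28. C09 lay within the hippocampus range of 1.62 to 2.39 and the other patch-poor arrays lay above it.

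*Spib*, a transcription factor that M cells need to mature and that B cells also use, was 8.21 and 8.31 against 5.45, 5.90, 6.07 and 5.23. *Sox8*, another transcription factor of M cell maturation, was above all patch-poor arrays but by only 0.56 ± 0.14. *Ccl20*, the epithelial chemokine that draws CCR6+ cells, was 6.94 and 6.75 against 7.40, 5.33, 5.61 and 4.92, so the classes overlapped through C09. The classes also overlapped in *Ccl9*, a chemokine of the follicle-associated epithelium (difference -0.05), and in *Tnfrsf11a*, the receptor RANK through which M cells are induced (-0.07).

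**Figure D2:**
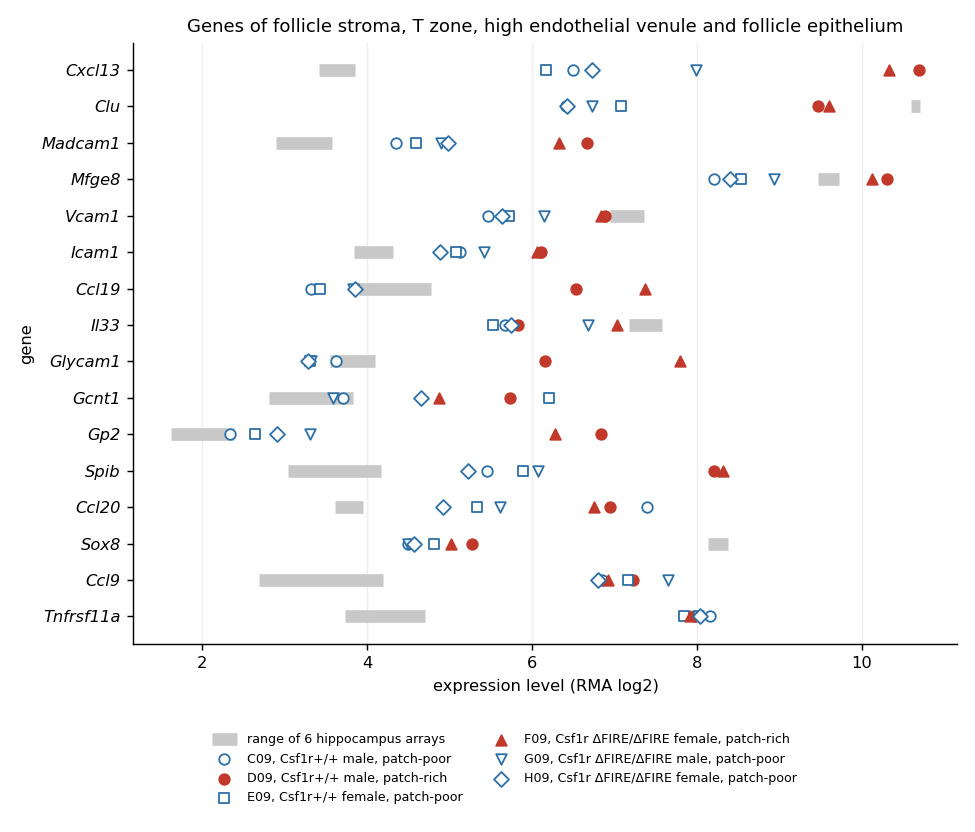
Expression level (RMA log2, horizontal axis) in each ileum array of genes of follicle stroma (*Cxcl13* to *Icam1*), T zone stroma (*Ccl19*, *Il33*), high endothelial venules (*Glycam1*, *Gcnt1*) and follicle-associated epithelium (*Gp2* to *Tnfrsf11a*), with patch-rich arrays in filled red, patch-poor arrays in open blue and the range of the 6 hippocampus arrays in grey. The classes are apart in *Cxcl13*, *Clu*, *Ccl19*, *Glycam1*, *Gp2* and *Spib* and overlap in *Il33*, *Gcnt1*, *Ccl20*, *Ccl9* and *Tnfrsf11a*.

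Of 11 chemokine receptors 4 were higher, namely *Cxcr5*, *Ccr7*, *Cxcr4* (2.73 ± 0.18) and *Ccr6* (2.22 ± 0.13), and of 14 chemokines 3, namely *Cxcl13*, *Ccl19* and *Ccl22* (1.18 ± 0.32). In the lymphotoxin and TNF axis, through which lymphocytes induce follicle stroma, 1 of 14 genes was higher. This was the ligand chain *Ltb*, at 7.10 and 7.31 against 5.04, 4.78, 4.74 and 4.98. *Lta*, the other chain, was above all patch-poor arrays by 0.91 ± 0.13, and the receptor *Ltbr* (0.00) and the transcription factor *Relb* (0.04) overlapped.

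Of 8 measured genes of MHC class II, which presents antigen to CD4+ T cells, 7 were higher, with a median difference of 1.34, and *Cd74*, the invariant chain, was 0.80 higher. The largest difference within this list was in *H2-Ob*, a chain of the class II modulator of B cells, at 8.03 and 9.24 against 4.19, 4.79, 4.87 and 4.58, followed by its partner *H2-Oa* (2.27 ± 0.15) and *Ciita*, the class II transactivator (2.04 ± 0.18). *H2-Eb2*, a class II beta chain gene outside the list, differed by 4.37 ± 0.21. *H2-Ea*, an alpha chain gene also outside the list, was 10.74 in D09 and 3.85 in F09, against 9.72 to 10.40 in the patch-poor arrays. *H2-Ab1*, a classical class II chain that other antigen-presenting cells also express at high level, was 10.77 and 10.92 against 8.40, 9.81, 10.32 and 8.92. The patch-poor arrays thus spread over 1.92 log2 units in *H2-Ab1* and over 0.68 in *H2-Ob*.

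Dendritic cell genes had 3 higher of 11, *Cd83* (2.10 ± 0.28), *Ccl22* and *Flt3* (1.04 ± 0.29). Macrophage genes had 1 higher of 23 and a median difference of 0.00. That gene was *Laptm5*, a lysosomal protein of all leukocytes, at 10.13 and 9.92 against 7.60, 8.39, 8.96 and 8.37. The list median was 0.62 within *Csf1r*+/+ and -0.42 within *Csf1r* ΔFIRE/ΔFIRE, each resting on 1 patch-rich array. The median of 0.00 thus combines differences of opposite sign. *Csf1r* was 8.17 in D09 and 6.44 in F09 against 7.41, 7.39, 7.53 and 6.86, and *Adgre1*, a surface marker of mature mouse macrophages, 6.12 and 4.74 against 5.68, 6.30, 6.76 and 5.98, so the patch-rich arrays were at opposite ends for *Csf1r*. Of 15 genes that the study named for ileum, 2 were higher (*Spib* and *Cd4*). *Ly6c1*, which the study also named, was not in this list. The study took these genes as *Csf1r* and known markers of intestinal cell types, and looked them up in these same samples.

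Other epithelial and structural lists gave 0 higher and 0 lower genes, as shown in the plot of differences by gene list. These were enterocytes (30 genes, median difference 0.09), goblet cells (10, -0.06), Paneth cells (10, -0.26), enteroendocrine cells (12, -0.22), tuft cells (9, -0.21), stem cells and crypts (12, -0.18), smooth muscle (11, -0.26), fibroblasts and matrix (13, -0.18) and enteric neurons and glia (9, -0.13). Over all genes 1.33% were higher and 0.101% lower, so counts of 0 are near that share in lists of this size. Within *Csf1r*+/+ and *Csf1r* ΔFIRE/ΔFIRE, each with 1 patch-rich array, some medians differed in sign. They were 0.51 and -0.87 for enteroendocrine cells and 0.08 and -0.51 for fibroblasts and matrix. For enterocytes they were -0.10 and 0.29, and for enteric neurons and glia 0.02 and -0.25. The other medians were negative in both. The list mean of enterocyte genes was 10.34 in D09 and 11.06 in F09, the lowest but 1 and the highest of the 6 arrays, and that of smooth muscle genes was 9.21 and 9.20, both below the 4 patch-poor arrays at 9.28 to 9.79. Among enterocyte genes, *Mep1a*, a brush border metalloprotease, was low in C09 (7.38) and H09 (7.48) and 11.07 to 11.54 in the other 4 arrays, patch-rich ones included.

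**Figure D3:**
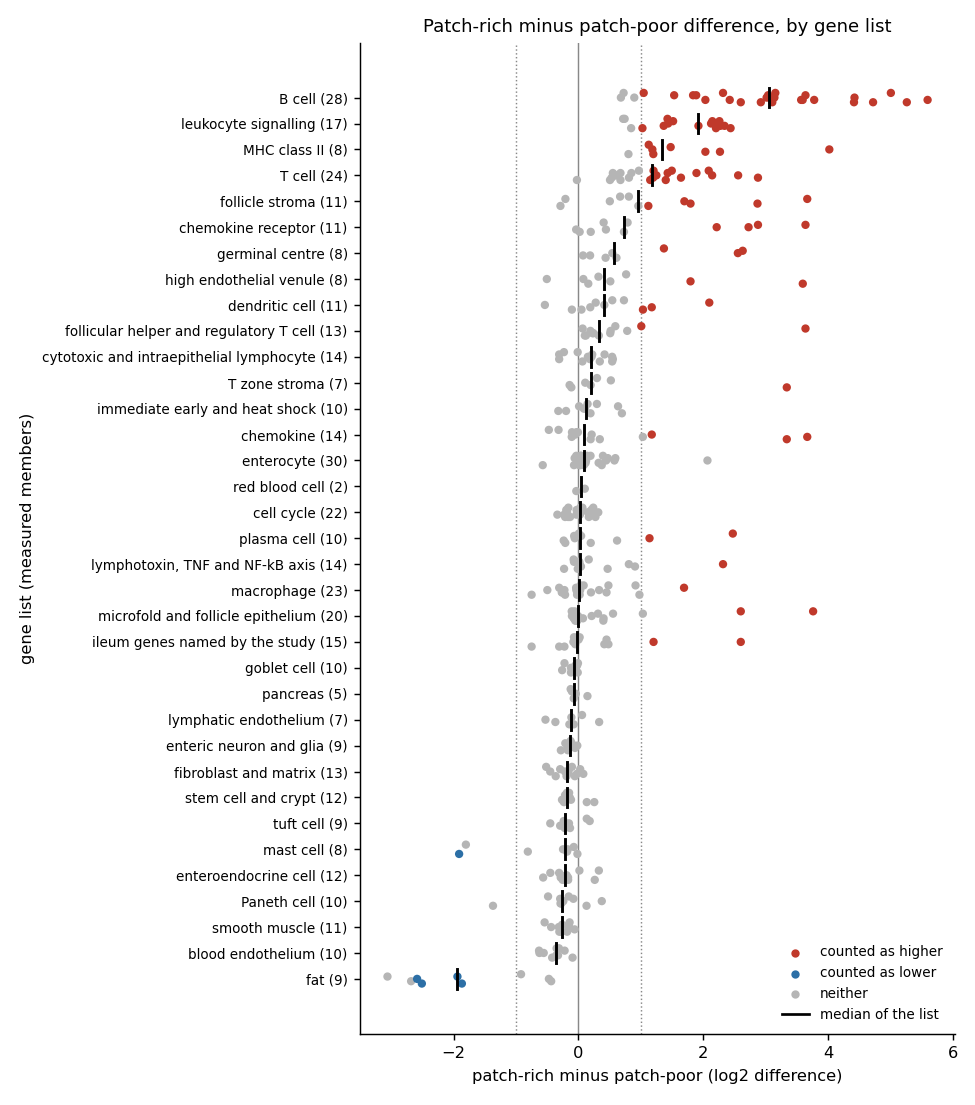
Patch-rich minus patch-poor difference (log2, horizontal axis) of each measured gene of the 35 lists, with the number of measured genes in brackets, genes counted as higher in red and as lower in blue, others in grey, the list median as a black bar and the 2-fold limits dotted. B cell, leukocyte, MHC class II and T cell genes lie furthest to the right, the epithelial and structural lists lie around 0, and fat genes lie to the left.

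Of the 19 lower genes, 6 differed by at least 4-fold, and fat cell genes were frequent among them. Of 9 fat genes 4 were lower, with a median difference of -1.94. *Plin1*, the coat protein of fat droplets, was 5.96 in D09 and 3.24 in F09 against 7.08, 7.83, 6.08 and 7.74, and *Adipoq*, the hormone adiponectin, 5.78 and 3.53 against 6.97, 7.96, 5.85 and 7.86. D09 lay within 0.12 of G09 in both, and only F09 was far below the rest. The list mean was 6.88 in D09, 5.19 in F09, 7.82 in C09, 8.29 in E09, 7.07 in G09 and 8.28 in H09, against 3.76 to 4.06 in the hippocampus, and the part of fat in the other differences was not tested.

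The gene with the largest decrease was *Trim12a*, of a family of antiviral TRIM proteins, at 2.20 in D09 and 3.35 in F09 against 6.99 in C09, 6.10 in E09, 6.13 in G09 and 6.35 in H09. The patch-rich arrays were within the hippocampus range of 2.10 to 3.78, and the classes were 2.75 apart at their nearest. *Trim30d*, of the same family and also on chromosome 7, was 5.72 and 6.00 against 8.56, 7.73, 7.65 and 7.67. In *Trim30d* the classes were 1.65 apart at their nearest. In *Cyp2e1*, a cytochrome P450 of liver and fat, and *Apol10a*, an apolipoprotein L, F09 was much the lowest (2.70 and 3.58) while D09 (5.59 and 6.21) was 0.31 and 0.11 below the nearest patch-poor array. *Mcpt2*, a mast cell protease of the mucosa, was 4.68 and 3.18 against 5.04, 4.77, 7.76 and 5.80, the 1 lower gene of 8 in the mast cell list.

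**Figure D4:**
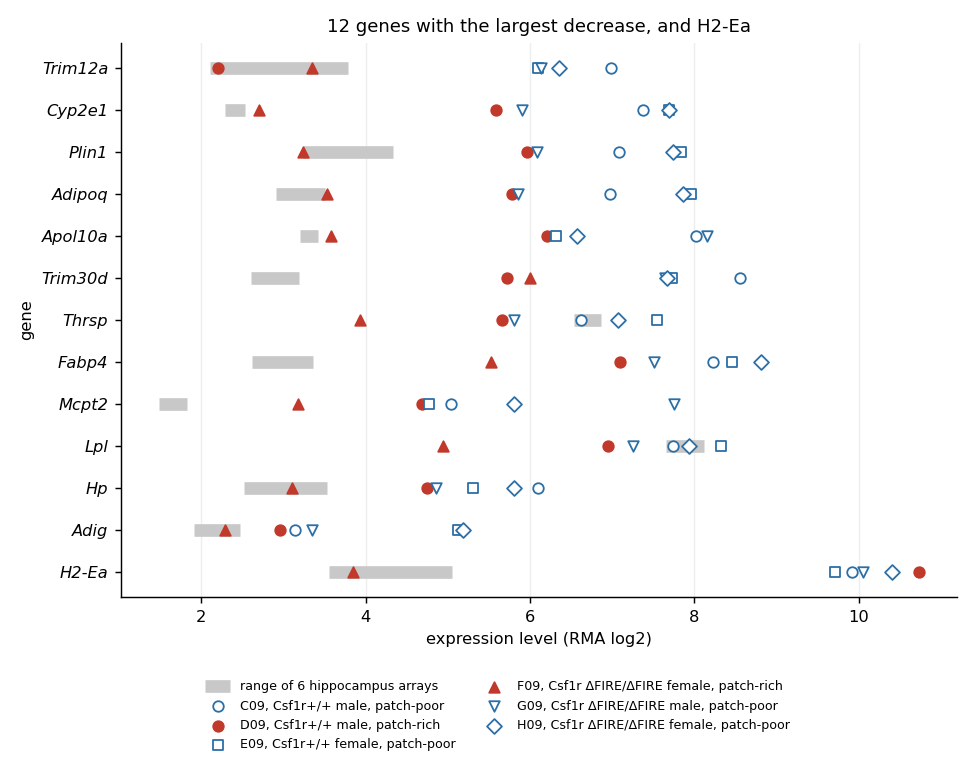
Expression level (RMA log2, horizontal axis) in each ileum array of the 12 genes with the largest decrease in the patch-rich arrays and of *H2-Ea*, with patch-rich arrays in filled red, patch-poor arrays in open blue and the range of the 6 hippocampus arrays in grey. *Trim12a* and *Trim30d* have both red symbols apart from the blue ones, in the others F09 is the lowest and D09 lies close to a blue symbol, and in *H2-Ea* F09 alone is low.

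The comparison could be made within each genotype, of 1 patch-rich against 2 patch-poor arrays. Of the 250 higher genes, 186 differed by at least 2-fold in both genotypes, and of the 19 lower genes 12, counts that the selection of the genes on both patch-rich arrays favours. Across all 18820 genes, which are not independent, the differences within the genotypes had a Pearson r of 0.28. Over all 18820 genes, 371 were at least 2-fold higher in D09 than the mean of C09 and E09, and 271 were so in F09 against G09 and H09. The 191 in both made up 51.5% of the former and 70.5% of the latter. For decreases the counts were 54 and 201, with 16 in both, 29.6% and 7.96%.

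*Ms4a1* differed by 5.07 within *Csf1r*+/+ and 5.46 within *Csf1r* ΔFIRE/ΔFIRE, *Gp2* by 4.35 and 3.18, *Cxcl13* by 4.36 and 2.98, *Glycam1* by 2.70 and 4.50 and *Spib* by 2.54 and 2.67. F09 was above D09 in 127 of the 250 higher genes, and the median distance between these arrays was 0.22 over the higher genes and 0.21 over all genes. Those 1 or more apart were *Glycam1*, *H2-Ob*, *P2ry10*, *Igkv8-19*, *H2-Q6* and *Snora61*, higher in F09, and *Ly6d*, higher in D09. In the lower genes F09 was below D09 in 17 of 19, and 11 were at least 1 apart.

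**Figure D5:**
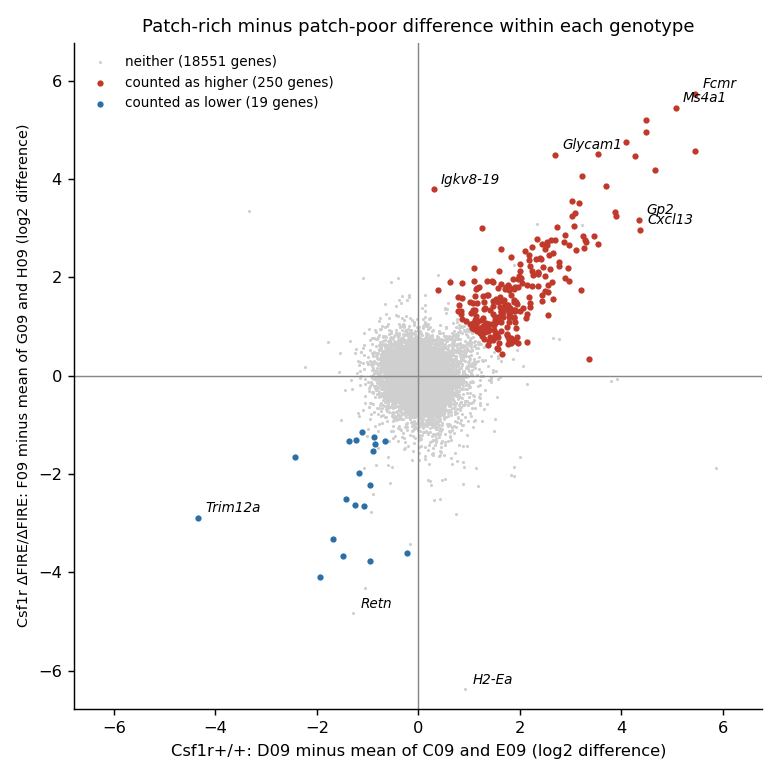
Patch-rich minus patch-poor difference (log2) of each gene within *Csf1r*+/+ (horizontal axis) and within *Csf1r* ΔFIRE/ΔFIRE (vertical axis), with the 250 genes counted as higher in red, the 19 counted as lower in blue and all others in grey. The red genes, selected as high in both patch-rich arrays, lie above 0 on both axes, with 64 of 250 under 2-fold in at least 1 genotype and *Igkv8-19* far off the diagonal, most blue genes lie further below 0 on the vertical than on the horizontal axis, and *H2-Ea* lies far below 0 on the vertical axis alone.

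Genotype was then tested with the patch class in the fit (limma, Benjamini-Hochberg adjustment over the 21218 clusters), a contrast that the classing did not use. No cluster passed an adjusted p of 0.05 (0 of 21218, 0%), the smallest adjusted p being 0.9995, and 403 clusters were higher and 314 lower in *Csf1r* ΔFIRE/ΔFIRE at an unadjusted p under 0.05. *Csf1r* was 0.71 lower (95% interval from -1.52 to 0.09). *Gp2* differed by 0.22 (-0.42 to 0.86), *Spib* by 0.02 (-0.56 to 0.59), *Cxcl13* by 0.56 (-0.41 to 1.53) and *Ms4a1* by -0.23 (-0.57 to 0.10). A 2-fold difference between the genotypes at equal patch class lay inside the intervals of *Csf1r* and *Cxcl13*.

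Among the 258 clusters higher in the patch-rich arrays, the median genotype difference was 0.19, against -0.01 over all clusters, and 25 were higher and 0 lower in *Csf1r* ΔFIRE/ΔFIRE at an unadjusted p under 0.05. The share under 0.05 was 9.69% of the 258, against 3.38% of all clusters. The 258 were selected on these same arrays by a rule that favours little spread within a class. That rule can by itself raise the share of small p-values, so the shares cannot be compared like for like. The 258 are also not independent of each other. The median and the counts moved with the array left out. G09 was the highest patch-poor array in 160 of the 250 higher genes and C09 the lowest in 134. Without G09 the median was 0.07 and the clusters under 0.05 were 9, and without C09 they were 0.10 and 16 higher with 3 lower. Without E09 they were 0.23 and 16 higher with 1 lower, without H09 0.27 and 39 higher, and without D09 or F09, which leaves the patch-poor arrays alone to bear on genotype, 0.29 and 33 higher with 3 lower. Without the patch class in the fit 0 clusters of the 258 were under 0.05.

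The difference between the genotypes in the patch class effect (the interaction, which rests on 1 patch-rich array of each genotype) passed in 1 cluster of 21218 (0.00471%). This was *H2-Ea*, an MHC class II alpha chain that C57BL/6 mice, unlike CBA mice, do not express. It was 10.74 in D09 and 3.85 in F09, against 9.92 in C09, 9.72 in E09, 10.05 in G09 and 10.40 in H09, and 3.55 to 5.05 in the hippocampus. F09 alone was low, at the hippocampus level, giving an interaction of -7.30 (95% interval -8.08 to -6.52, limma adjusted p = 0.0330). The adjusted p was above 0.05 without any 1 of the 4 patch-poor arrays (0.149 to 0.761). Other class II genes were not low in F09, with *H2-Eb1*, the partner chain, at 9.75 in F09 and 9.85 in D09. The unadjusted p was under 0.05 in 808 clusters with a positive and 965 with a negative interaction.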

How the data were processed

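RNA of whole tissue was measured on Affymetrix mouse gene arrays. The deposited values are log2 intensities that the authors made by RMA in R and Bioconductor (version not given in the sources used here, nor whether both tissues were normalized together). Symbols came from the platform annotation, updated by Entrez ID through the RefSeq table of GRCm38.p6 (21185 of 21218 single-symbol clusters matched). Clusters annotated to more than 1 symbol (1881) or to none (12457) were not used except in an alternative. Promoters of chromosome 18 are not reported here.

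Class, genotype and interaction were fitted with limma 3.58.1 (R 4.3.3, lmFit and eBayes, tested on simulated data) on the 6 ileum arrays. No signal filter was applied. Labels name no mouse, so p-values measure the spread between arrays, whose small number limits the precision. The Ms4a1 limit, the 35 gene lists (442 symbols, 36 without a single-symbol cluster) and the rules were chosen with earlier results of these data known. Named were the 20 genes with the largest increase and the 12 with the largest decrease, up to 4 genes per list, the genes at the 2-fold limit, those the study named, the smallest genotype and interaction p-values, and genes a result turned on or that made up a count of 5 or fewer, some of them chosen after their values were seen. Alternatives covered the limits, normalization, signal filter, clusters, covariates, moderation and each array left out.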

Additional observations from a re-analysis of the deposited data

Results flagged for a closer look

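In 17 of 221 items examined (7.69%), 1 of the 4 patch-poor arrays stood apart, its gap to the nearest of the others, as a share of the range, exceeding Dixon's 95% critical value, and chance gives this in about 1 of 20 groups of 4. C09 was that array in 10, G09 in 5, H09 in 2 and E09 in 0.

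In C09 the lone value was high for *Fcmr* (4.02, the others 3.41 to 3.50), *Cxcr5* (3.19), *Glycam1* (3.62), *Cd83* (6.197), *Muc2* (12.18), the main mucin of goblet cells, and *Trim30d* (8.56). It was low in C09 for the Paneth cell genes *Ang4* (6.39, the others 8.79 to 8.92) and *Mmp7* (8.72). It was also low there for *Lyz2*, a lysozyme gene of the macrophage list (9.62), and for *Frzb* (4.72). In G09 it was high for *Cxcr4* (5.97), *H2-Eb2* (3.23), the cytotoxic lymphocyte gene *Nkg7* (5.91), the mast cell protease gene *Cpa3* (4.75, the others 2.88 to 3.19) and the mean of the germinal centre list (5.32, the others 5.20 to 5.21). In H09 it was low for *Lta* (2.78) and the tuft cell gene *Sh2d6* (5.55).

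*H2-Ea* differed between the genotypes in its patch class difference, by -7.30 (limma interaction, adjusted p = 0.0330), with F09 alone low. This rests on 1 patch-rich array of each genotype, and the call was lost without any 1 patch-poor array (adjusted p 0.149 to 0.761) and without moderation (0.647).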

How the results depend on the processing

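The 258 higher and 19 lower clusters became 457 and 99 with a 1.5-fold limit, and 83 and 6 with a 4-fold limit. The 19 lower clusters became 39 with the 2-fold limit alone and 122 with all clusters of the table. Leaving out each array in turn gave 251 to 366 higher and 18 to 184 lower clusters, where 184 were lower without D09, 49 without F09, 42 without G09 and 34 without C09, against 22 without H09 and 18 without E09. Without F09 all 366 higher and 49 lower clusters rest on 1 patch-rich array, as do those without D09, and 246 and 12 of the main clusters were among them. *Ms4a1* limits of 5 and 7 gave the same classes. Genotype, with 0 higher and 0 lower clusters, gave 0 to 1 higher cluster with an array left out, the 1 being *Acot12* without C09 (log2 difference 3.31, limma adjusted p = 0.0117), and 0 under the other alternatives. The 1 negative interaction, *H2-Ea*, became 0 with no moderation (limma adjusted p = 0.647), with only clusters above the median signal (0.0509), with all clusters (0.156) and without any 1 patch-poor array (0 to 0 clusters, adjusted p 0.149 to 0.761), and stayed called after a second quantile normalization (0.0311). Of the class differences of named genes under the alternatives, 2143 moved by less than the residual SD of the fit and 130 by more, and no counted gene reversed. The changes of limit and of cluster set leave these differences as they are. A counted gene also cannot reverse when an array is left out, so this tally is no measure of stability. No paired analysis was possible because the labels give no replicate numbers shared between the groups. With 2 patch-rich arrays, 1 per genotype, class and the individual mouse cannot be told apart within a genotype, and the names patch-rich and patch-poor rest on transcript levels, not on histology.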

Other observations

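A few immunoglobulin genes are given that were chosen after their values were seen, and variable segments share sequence, so their clusters are uncertain. *Igha*, the constant region of IgA, was 9.85 in D09 and 7.86 in F09 against 5.81 in C09, 6.31 in E09, 6.32 in G09 and 9.63 in H09, so that patch-poor H09 lay close to D09. *Igkv8-30* was likewise highest in D09 (8.34) and H09 (6.07) and 4.18 to 5.40 in the other 4 arrays. The classes overlapped in both genes. Counted as higher were *Igkv8-19*, at 6.76 in F09 and 2.88 to 3.23 in the other 5 arrays, and another kappa variable segment gene, at 7.94 in D09 and 8.77 in F09 against 5.37, 6.70, 7.90 and 6.02. High *Igha* thus occurred in H09, a patch-poor array, while *Ms4a1* in H09 was the lowest of the 6 arrays at 2.14.

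Of the 19 genes lower in the patch-rich arrays, 7 lie on chromosome 7 (36.8%), against 1647 of 18805 measured genes with a chromosome (8.76%) and 20 of 250 higher genes (8%). They are *Trim12a*, *Trim30d*, *Cyp2e1*, *Plin1*, *Thrsp*, *B3gnt6* and *Fut2*. *Trim12a* and *Trim30d* are of the same family and *Plin1* is a fat gene, so the 7 need not be independent. The share was not tested. In *Fut2* and *B3gnt6*, glycosyltransferases of the epithelium, D09 lay at 4.01 and 4.14 and F09 at 3.20 and 3.86, against patch-poor ranges of 4.08 to 5.67 and 4.95 to 5.46.

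Some genes not named above were also among the higher ones, and the cell types that express them were not tested. *Psg18*, of the pregnancy-specific glycoprotein family, was 5.03 and 5.45 against 1.78 to 2.17. *Stra6*, a receptor for retinol uptake, was 7.09 and 7.03 against 4.11 to 4.49, and *Il22ra2*, the secreted decoy receptor of interleukin 22, 6.07 and 6.11 against 3.39 to 4.79.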
